A study of Mus musculus with 18 samples.

Results

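The mitochondrial carriers of the SLC25 family were examined in mouse intestine after azoxymethane (AOM) and St. John's wort (SJW). Members were the genes named Slc25a with a number, or Ucp1, Ucp2 or Ucp3, without Slc25a20. A gene entered if its sample signal was well above background on all 3 arrays of at least 1 of the 6 groups. The RefSeq table held 49 such symbols, 47 of them with a probe on the array, and 43 genes entered out of 26073 measured genes. Slc25a34 and Slc25a53 had no probe, and Slc25a2, Slc25a18, Slc25a21 and Slc25a54 had a probe that was not well above background often enough.

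All samples came from male C57BL/6 mice, on a control diet or a diet with SJW, a medicinal herb whose extract induces drug-metabolizing enzymes. The groups were non-tumour tissue after saline injection (control saline, SJW saline), non-tumour tissue after injection of AOM, a carcinogen that induces intestinal tumours (control AOM, SJW AOM), and tumours after AOM (control tumour, SJW tumour), with 3 arrays in each. Arrays of a group are biological replicates according to the series design, and nothing further is given on the animals behind them. Doses and the age of the mice are not given in the sources used here. Every array set 1 sample, in red, against the same commercial RNA pool of Swiss Webster mice, in green. The pool came from embryo and from adult organs without intestine, and a positive log2 ratio is a higher signal in the sample than in that pool. The labels name small intestine as the tissue, and the extraction protocol names liver.

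Carriers of this family sit in the inner mitochondrial membrane and exchange metabolites between the cytosol and the matrix: ADP for ATP, phosphate, carboxylates, amino acids, nucleotides, cofactors and iron. They are encoded in the nucleus and imported without a cleaved presequence in most cases. The uncoupling proteins are relatives that let protons back into the matrix. In the intestinal epithelium, mitochondria oxidize glutamine and fatty acids to fuel absorption and secretion, and proliferating cells use the same carriers to move citrate, aspartate and one-carbon units.

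Of the 43 carrier genes, 37 were well above background on all 18 arrays, and Slc25a31, Slc25a42, Slc25a43, Slc25a45 and Slc25a47 on 17. Ucp3 was well above background on 7 arrays and entered through the control tumours alone, so its values are close to background. Median red intensity was 133 to 375 on the 12 non-tumour arrays and 336.5 to 786.5 on the 6 tumour arrays. The reference channel was brighter on 6 arrays (median green intensity 507 to 755) than on the other 12 (198 to 298). The 6 were control saline replicates 2 and 3, SJW saline replicates 1 and 3, control AOM replicate 2 and control tumour replicate 3. The 12 non-tumour arrays lay on 3 slides, 1 array of each group on each slide, and the 6 tumour arrays on 2 further slides scanned on another day. The labelled tissue was checked on the 6 saline arrays. The colonocyte gene Car1 had a median log2 ratio of 7.91, the goblet cell gene Muc2 of 8.11 and the hepatocyte gene Alb of -3.27. Of 12 absorptive enterocyte genes, the saline median ran from -2.02 for Anpep to 4.95 for Fabp2, with Sis at 1.05 and Lct, well above background on 3 of these 6 arrays, at -0.02. Of the other 5 measured hepatocyte genes, 1 was above 0 (Apob, which enterocytes also express, at 1.55).

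Upstream sequences are shown for 4 of the carriers named in the comparisons below, the ADP/ATP carriers Slc25a4 and Slc25a5, the ATP-Mg carrier Slc25a24 and the pyrimidine nucleotide carrier Slc25a33. Each is the 250 bases before the annotated start of transcription from RefSeq, build GRCm38.p6, written 5′ to 3′ on the strand of the gene. Capitals mark matches, on either strand, to 6 motifs: the NRF1 site, CACGTG (E-box), TCAAGGTCA (ERR site), CCAAT (the CCAAT box), GGGCGG (the GC box) and TATAAA (the TATA box).
Slc25a4, chr8:46211063-46211312 (minus strand): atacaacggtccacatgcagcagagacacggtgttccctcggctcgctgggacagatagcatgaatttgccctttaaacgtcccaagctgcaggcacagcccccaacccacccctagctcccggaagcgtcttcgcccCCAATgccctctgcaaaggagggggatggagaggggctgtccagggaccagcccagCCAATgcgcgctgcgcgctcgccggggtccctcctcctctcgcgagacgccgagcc
Slc25a5, chrX:36795347-36795596 (plus strand): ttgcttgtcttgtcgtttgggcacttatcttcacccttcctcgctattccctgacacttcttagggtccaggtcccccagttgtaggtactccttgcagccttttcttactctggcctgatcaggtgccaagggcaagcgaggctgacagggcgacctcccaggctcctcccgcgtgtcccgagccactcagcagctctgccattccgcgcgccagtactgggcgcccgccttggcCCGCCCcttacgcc
Slc25a24, chr3:109122899-109123148 (plus strand): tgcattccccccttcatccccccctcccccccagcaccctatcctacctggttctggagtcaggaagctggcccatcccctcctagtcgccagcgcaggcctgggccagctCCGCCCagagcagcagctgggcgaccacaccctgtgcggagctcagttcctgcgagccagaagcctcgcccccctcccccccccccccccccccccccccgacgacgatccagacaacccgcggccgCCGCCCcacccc
Slc25a33, chr4:149774268-149774517 (minus strand): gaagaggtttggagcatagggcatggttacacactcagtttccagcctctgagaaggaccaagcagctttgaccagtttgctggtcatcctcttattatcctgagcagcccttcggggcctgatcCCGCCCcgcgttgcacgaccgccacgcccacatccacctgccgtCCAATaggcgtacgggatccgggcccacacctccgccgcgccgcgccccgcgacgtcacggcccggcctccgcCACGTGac
Slc25a4 held 2 CCAAT boxes and no GC box, Slc25a5 and Slc25a24 held GC boxes and no CCAAT box, and Slc25a33 held an E-box, a CCAAT box and a GC box. The row of Slc25a38, a carrier called in tumours of both diets and not shown here, held none of the 6 motifs (GC content 41.6%). Promoter rows were found for 33 of the 43 carriers (41 rows, since some genes have several starts). A GC box was present in 70.7% of these rows against 32.7% of 32851 rows over all genes, and a CCAAT box in 43.9% against 33.8%. An E-box was present in 19.5% against 6.02%, and an NRF1 site in 4.88% against 3.74%. No carrier row held a TATAAA match, found in 12.4% of all rows, or an ERR site, found in 0.387%. Median GC content was 57.6% in the carrier rows and 52.4% over all genes. These matches describe letters in the window and are not evidence of binding. None of the spelled motifs contains another.

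In saline-treated tissue the carriers differed widely in their ratio to the pool. The mean over the 6 saline arrays was above 1 for 3 genes (6.98%, against 10.9% of all genes) and below -1 for 8 (18.6%, against 15.1%). The median of these means was -0.22 over the 43 carriers, against 0.08 over all genes. Slc25a24, which exchanges ATP-Mg for phosphate under the control of calcium, had the highest ratio, from 2.82 to 3.59 on the 6 arrays with a median of 3.22. Slc25a5, the ADP/ATP carrier of most proliferating tissues, followed at 1.13, and Slc25a46, an outer-membrane protein involved in mitochondrial shape, at 1.05. The ranges of Slc25a5 (0.70 to 1.35) and Slc25a46 (0.88 to 1.30) overlapped, while that of Slc25a24 lay above both.

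At the other end, Slc25a4, the ADP/ATP carrier of heart and skeletal muscle, had the lowest ratio, from -2.87 to -2.05 with a median of -2.20. Next were Slc25a33 (median -2.17), Ucp1, the uncoupling protein of brown fat (-2.16), and the ATP-Mg carrier Slc25a23 (-1.99), and these 4 genes overlapped in range. Slc25a31, the ADP/ATP carrier of male germ cells, was at -1.37. In all, 13 carriers were above 0 and 21 below 0 on all 6 saline arrays, against 10076 and 8719 of 26073 genes. Since each value is relative to the pool, these orders do not rank the amounts of transcript.

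**Figure D1:**
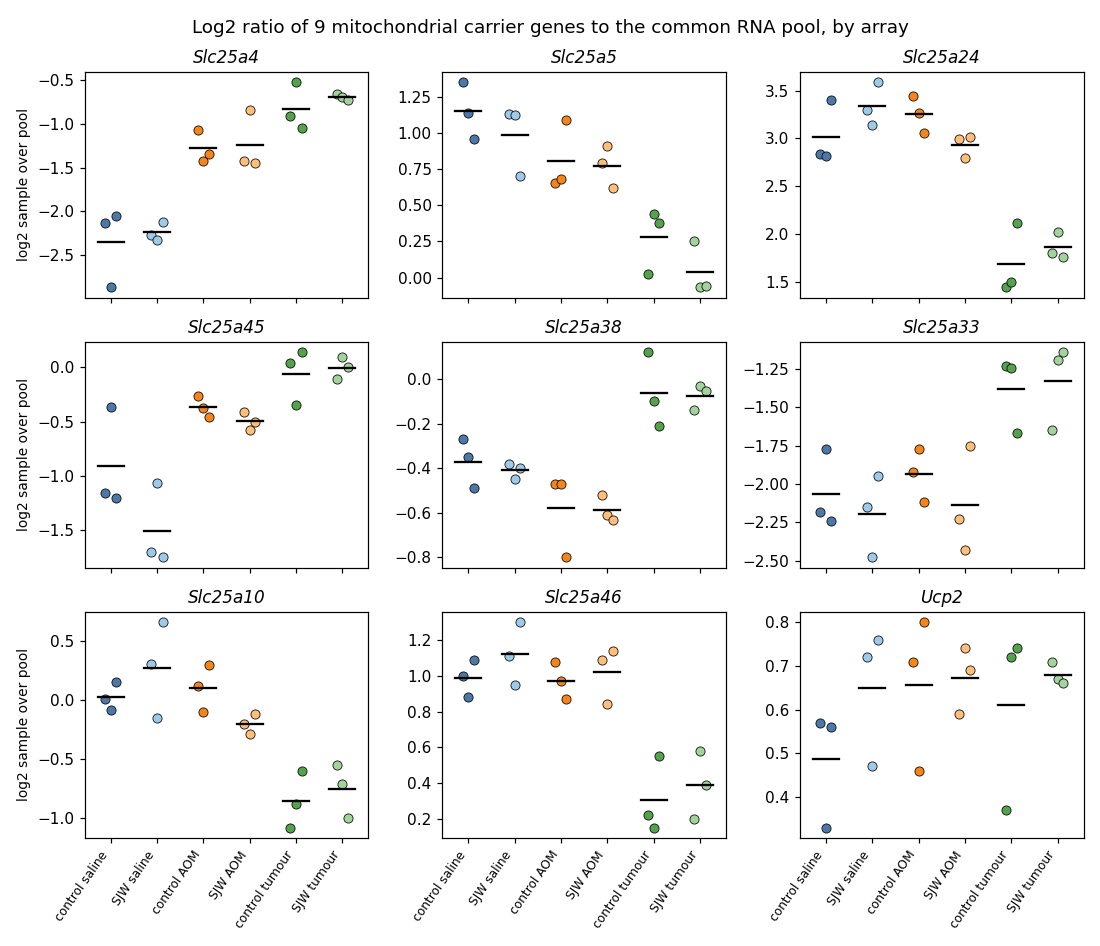
Log2 ratio of sample to pool (vertical axis, own scale in each panel) for 9 carriers; each point is 1 array, placed by replicate number 1 to 3 from left to right, and bars are means of 3 arrays. Slc25a4 stood higher on the 6 AOM arrays than on the 6 saline arrays, while Slc25a24, Slc25a5, Slc25a10 and Slc25a46 were lower on the 6 tumour arrays than on the 6 AOM arrays.

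The first comparison asked what AOM did to the carriers in non-tumour tissue. Slc25a4 rose in both diets, about 2-fold, and Slc25a45, a carrier grouped here with those of amino acids, rose on the SJW diet. On the control diet Slc25a4 was at -2.13, -2.87 and -2.05 after saline and at -1.07, -1.42 and -1.34 after AOM. With SJW it was at -2.27, -2.33 and -2.12 after saline and at -1.42, -0.84 and -1.45 after AOM. All 6 AOM arrays lay above all 6 saline arrays, which held for 1 carrier and for 2.24% of all genes. All 6 AOM arrays lay below for 0 carriers and for 1.44% of all genes.

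The change of Slc25a4 was 1.07 ± 0.21 (SE) on the control diet (2.10-fold, limma adjusted p = 0.0339) and 1.00 ± 0.21 on the SJW diet (2.00-fold, adjusted p = 0.0374), from 3 arrays a group. Its second probe changed by 1.41 ± 0.28 and 1.03 ± 0.28. Within the 3 slides the change was 1.06, 1.45 and 0.70 on the control diet and 0.85, 1.49 and 0.66 on the SJW diet. A fit that blocked on slide gave an adjusted p of 0.0572 for the control diet and of 0.0462 for the SJW diet. Over 12 other settings the call was kept in 8 on the control diet and in 5 on the SJW diet, with changes of 0.92 to 1.61 and 0.8 to 1.1. On the control diet the call held only when control saline replicate 3 was the array left out, and on the SJW diet only when SJW AOM replicate 1 was (changes of 0.81 to 1.22 and 0.80 to 1.11 over the arrays left out). Leaving out the 6 arrays of bright reference kept only control saline replicate 1 and SJW saline replicate 2 for saline, and the changes were 0.92 and 1.1. This setting is among the 12 above, and with 1 saline array in each diet it gives no usable test of the calls.

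Smooth muscle markers stood higher on most AOM arrays. The mean log2 ratio of 8 such genes, Acta2, Myh11 and Des among them, was -1.23 to 0.97 on the saline arrays and 0.38 to 2.75 on the AOM arrays, and all 8 had positive changes in both diets with 0 passing the test. In the tumours, where the marker mean was -1.39 to -0.65, Slc25a4 was at -1.04 to -0.52, above all saline arrays. The mean of 7 striated muscle markers was -1.83 to -1.04 on the saline arrays and -1.55 to -0.98 on the control AOM arrays. In SJW AOM it was -1.30, 0.39 and -1.01, and replicate 2, which stood apart, also had the highest Slc25a4 of the 6 AOM arrays (-0.84). On the SJW diet 1 of these 7 genes, Acta1, was called higher, and their median change was 1.01. Without SJW AOM replicate 2 the change of Slc25a4 was 0.80 ± 0.22 (adjusted p = 0.126). The part of both marker lists in the change of Slc25a4 was not tested. In bulk tissue, more cells of a type and more RNA per cell cannot be told apart.

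**Figure D2:**
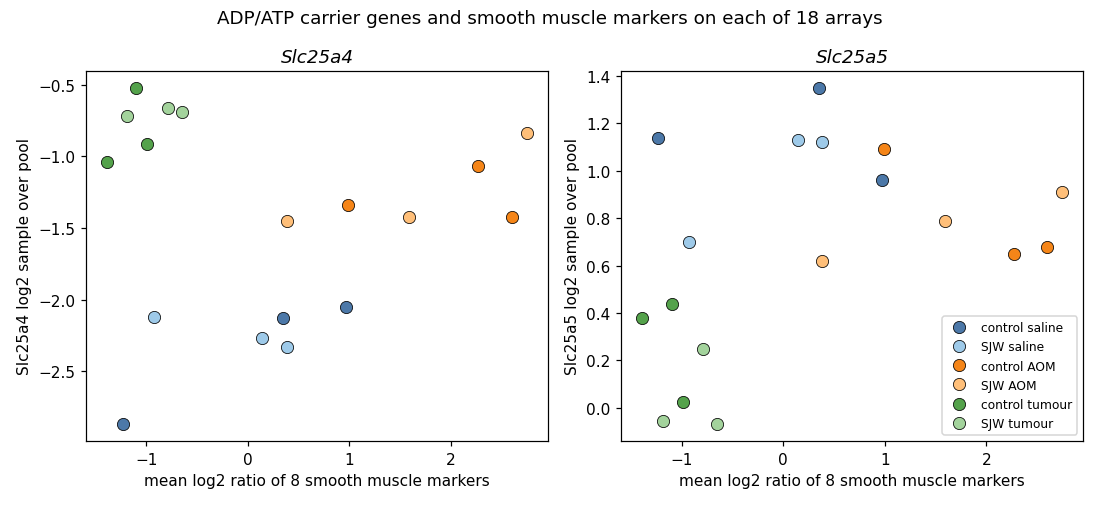
Log2 ratio to the pool of Slc25a4 (left) and Slc25a5 (right) on the vertical axes against the mean log2 ratio of 8 smooth muscle markers on the horizontal axes; each point is 1 of 18 arrays, coloured by group. Marker means run from -1.23 to 0.97 on the saline arrays, 0.38 to 2.75 on the AOM arrays and -1.39 to -0.65 in tumours.

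Slc25a45 was at -1.70, -1.06 and -1.75 in SJW saline and at -0.41, -0.58 and -0.50 in SJW AOM, with no overlap, a change of 1.01 ± 0.22 (2.01-fold, adjusted p = 0.0383). On the control diet it was at -1.16, -0.36 and -1.20 after saline and at -0.26, -0.37 and -0.46 after AOM, where control saline replicate 2 overlapped the AOM arrays (0.54 ± 0.22, adjusted p = 0.264). The SJW call held only when SJW saline replicate 2 was the array left out. Without the arrays of bright reference, where SJW saline replicate 2 was the only SJW saline array left, the SJW change was 0.57. From the scanner's own log ratios the change was 1.55 on the control diet (adjusted p = 0.0383) and 1.48 on the SJW diet (adjusted p = 0.0652). The control change also passed in the deposited value table (1.6, adjusted p = 0.0231) and without background subtraction (0.87, adjusted p = 0.0148). It did not pass with median centring or the red channel alone. Over 12 other settings the SJW call was kept in 7, with changes of 0.57 to 1.58. The 12 include the setting without bright-reference arrays, where 1 SJW saline array gives no usable test.

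In all, 1 of 43 carriers was called higher and 0 lower after AOM on the control diet, against 0.583% of all genes called (0.456% higher, 0.127% lower). On the SJW diet 2 were called higher and 0 lower, against 1.14% of all genes (0.656% higher, 0.479% lower). The median change over the carriers was -0.02 (all genes -0.01) and -0.10 (all genes -0.02). The other ADP/ATP and phosphate carriers did not pass: Slc25a5 changed by -0.34 ± 0.17 and -0.21 ± 0.17, and the phosphate carrier Slc25a3 by -0.06 ± 0.14 and -0.15 ± 0.14. Without overlap between the 2 groups, 2 carriers lay higher and 4 lower on the control diet, against 9.45% and 8.33% of all genes (17.8% in all). With SJW, 5 lay higher and 8 lower, against 13.1% and 15.5%. Of the 6 uncoupling proteins and their relatives, 2 had positive changes on the control diet (range -0.32 to 0.17) and 6 on the SJW diet (0.02 to 0.66), and 0 passed in either. Ucp2, the uncoupling protein of epithelial and immune cells, was at 0.17 ± 0.13 and 0.02 ± 0.13.

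Outside the calls, the pyrimidine nucleotide carrier Slc25a36 changed by -0.62 ± 0.18 on the control diet (adjusted p = 0.114), with lower values on all 3 AOM arrays. On the SJW diet the branched-chain amino acid carrier Slc25a44 (-0.56 ± 0.14, adjusted p = 0.0627), the aspartate/glutamate carrier Slc25a13 (-0.61 ± 0.17, adjusted p = 0.0797) and the glutathione carrier Slc25a40 (-0.64 ± 0.18, adjusted p = 0.0798) came nearest. Each of these 3 had lower values on all 3 SJW AOM arrays than on the SJW saline arrays. Within slides 1 to 3 the change was -0.35, -0.52 and -0.80 for Slc25a44, -0.11, -0.50 and -1.23 for Slc25a13, and -0.59, -0.13 and -1.20 for Slc25a40. These groups did not overlap for 28.6% of all genes. The mean of 6 colonocyte markers was 4.06 to 4.91 on the SJW AOM and 5.28 to 6.13 on the SJW saline arrays, and 2 of the 6 passed as lower. The mean of 8 pancreatic acinar markers was -0.93, -0.87 and 3.70 in SJW AOM replicates 1 to 3. In SJW saline replicates 1 to 3 it was 0.50, 1.37 and -0.86, and 0 of the 8 passed. The part of both marker lists in these values was not tested.

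**Figure D3:**
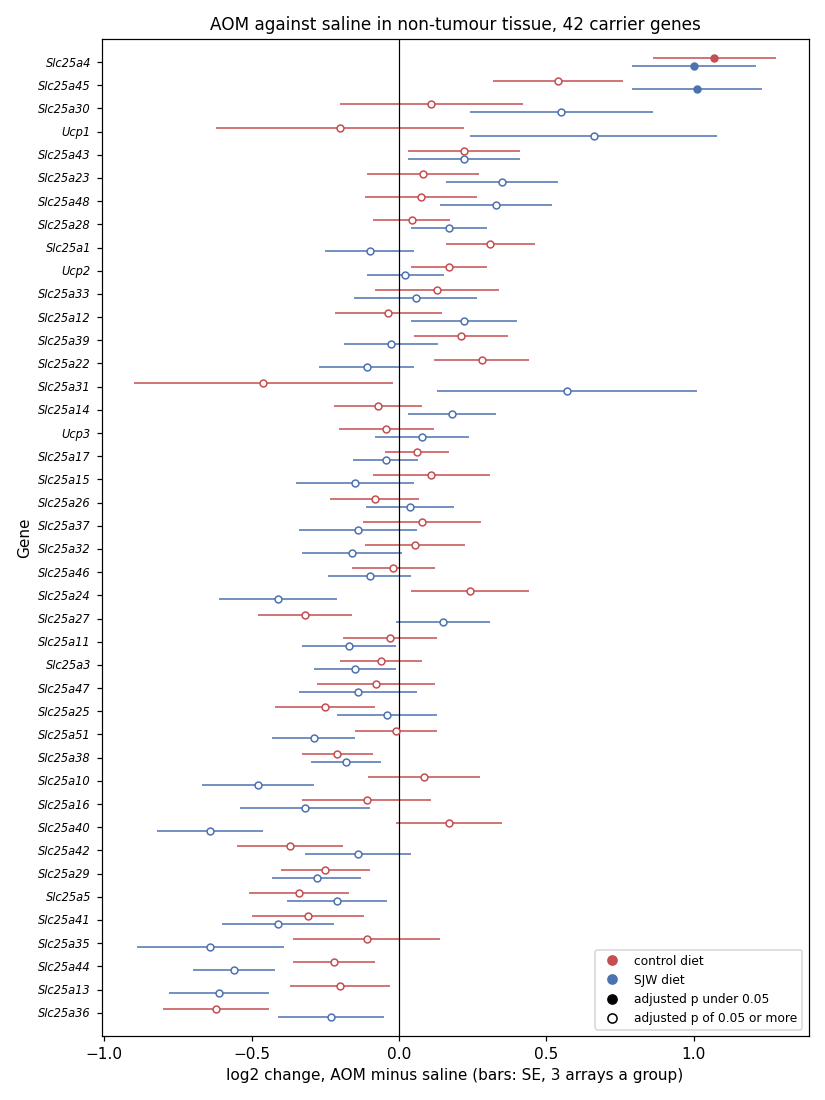
Log2 change after AOM against saline (horizontal axis, bars are SE, 3 arrays a group) for 42 of the 43 carriers, sorted by the sum over both diets; filled points have an adjusted p under 0.05. Slc25a4 (1.07 and 1.00) and Slc25a45 (0.54 and 1.01) stand apart at the top, and the other carriers scatter around 0.

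The second comparison set tumours against non-tumour tissue of AOM-treated mice; it shares the AOM arrays with the first. Slc25a24 fell by 1.58 on the control diet and by 1.07 on the SJW diet, the largest falls among the carriers, and the dicarboxylate carrier Slc25a10, Slc25a46, Slc25a5, the mitoferrin Slc25a28 and the uncoupling protein relative Slc25a14 fell in both diets. Slc25a38, the glycine carrier that serves heme synthesis, rose in both diets by 0.52 and 0.51. On the control diet 1 of 43 carriers was called higher and 12 lower, against 12.7% and 19.3% of all genes (32% in all). On the SJW diet 2 were called higher and 6 lower, against 9.18% and 15.4% of all genes (24.6% in all). The share of carriers called, 30.2% and 18.6%, was thus near or below that of all genes. Without overlap, 20 carriers were separated on the control diet (5 higher, 15 lower), against 42.7% of all genes (18% and 24.6%). With SJW, 18 were (6 higher, 12 lower), against 46.2% (17.7% and 28.5%). Of the calls, 7 carriers were called in both diets with the same direction, on arrays that share slides between the diets.

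The direction of the carriers as a group depended on the normalization. The median change was -0.28 on the control diet and -0.19 on the SJW diet (all genes -0.06 and -0.07), with loess normalization. Median centring of the arrays instead gave different signs: the carriers' median was 0.05 and 0.03 and that of all genes 0.12 and 0.10. The calls then were 5 higher and 1 lower on the control diet, and 4 higher and 0 lower on the SJW diet. The scanner's own log ratios gave 5 higher and 4 lower, and 6 higher and 3 lower. The deposited value table, which lists 37 of the 43 carriers, gave 5 and 5, and 3 and 4. The red channel alone gave 3 and 6, and 5 and 4. Relative to all genes, the carriers' median was lower under each of these settings, by -0.22 to -0.01 on the control diet and by -0.13 to -0.02 on the SJW diet.

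The direction of single carriers depended on the normalization for most. Under loess and the other 5 normalizations, 12 carriers had a negative tumour change in both diets each time, and 7 a positive one. The other 24 had both signs among the diets and normalizations. With loess alone, 37 of the 43 carriers had the same sign in both diets. The remaining carriers, whose sign differed between the diets under loess, are among the 24. The 12 were Slc25a3, Slc25a5, Slc25a10, Slc25a12, Slc25a13, Slc25a14, Slc25a24, Slc25a28, Slc25a37, Slc25a40, Slc25a46 and Ucp1. The 7 were Slc25a4, Slc25a17, Slc25a27, Slc25a30, Slc25a33, Slc25a38 and Slc25a45. The probes of Slc25a27 disagreed: the probe used was at 0.36 ± 0.16 and 0.16 ± 0.16. A dimmer probe was at -0.34 ± 0.26 in each diet, and another at 0.28 ± 0.16 and 0.05 ± 0.16. Slc25a38 passed the test in 12 of 12 such fits, Slc25a24 in 9 of 10, Slc25a46 and Slc25a33 in 9 of 12 and Slc25a30 in 8 of 12. Slc25a24, Slc25a4, Slc25a5 and Slc25a3 are not in the deposited value table, which leaves 10 fits for each.

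**Figure D4:**
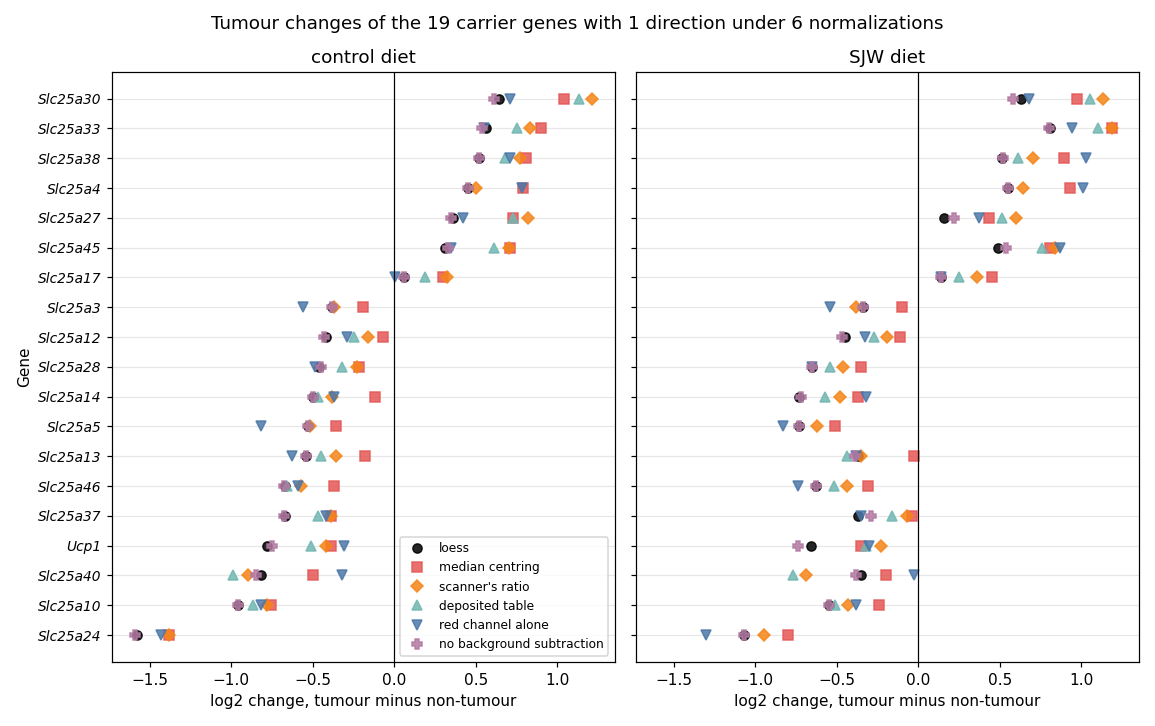
Log2 change in tumours against non-tumour tissue (horizontal axis) on the control diet (left) and the SJW diet (right) for the 19 carriers whose change kept 1 sign; each symbol is 1 of 6 normalizations. Median centring and the scanner's ratio shifted most genes to the right of loess, and Slc25a24 lies at -1.59 to -0.8 over both panels and Slc25a38 at 0.51 to 1.03.

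Among the ATP-Mg and CoA carriers, Slc25a24 was at 3.45, 3.27 and 3.06 in control AOM and at 1.44, 1.5 and 2.11 in the control tumours. In SJW AOM it was at 2.99, 2.80 and 3.02, and in the SJW tumours at 1.80, 2.02 and 1.76. The highest of the 6 tumour arrays (2.11) lay below the lowest of the 6 AOM arrays (2.80) and below all saline arrays. The change was -1.58 ± 0.20 (2.98-fold lower, adjusted p = 3.29e-05) and -1.07 ± 0.20 (2.10-fold lower, adjusted p = 0.00105). Its second probe was at -0.86 ± 0.27 and -0.78 ± 0.27. Slc25a24 passed under each alternative run on the control diet, and on the SJW diet under each but median centring (-0.80, adjusted p = 0.0644). The other 6 members of this role did not pass, and their changes ran from -0.48 for Slc25a16 to 0.31 for Slc25a23.

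Of the ADP/ATP carriers, Slc25a5 fell in the tumours and Slc25a4 did not pass. Slc25a5 was at 0.65, 0.68 and 1.09 in control AOM and at 0.02, 0.44 and 0.38 in the control tumours. In SJW AOM it was at 0.79, 0.91 and 0.62, and in the SJW tumours at 0.25, -0.07 and -0.06. No tumour array reached the lowest AOM array, and the changes were -0.53 ± 0.17 (adjusted p = 0.0278) and -0.73 ± 0.17 (adjusted p = 0.00587). The control call was lost without control AOM replicate 3 or control tumour replicate 1. Slc25a4 was at -0.91, -0.52 and -1.04 in the control tumours and at -0.66, -0.69 and -0.72 in the SJW tumours, above the AOM arrays within each diet, with changes of 0.45 ± 0.21 (adjusted p = 0.116) and 0.55 ± 0.21 (adjusted p = 0.0701) that did not pass. Over the normalizations and both diets, Slc25a4 passed in 3 of 10 fits. These were the red channel alone in both diets (0.78, adjusted p = 0.0108, and 1.01, adjusted p = 0.00195) and the scanner's ratio on the SJW diet (0.64, adjusted p = 0.0473). The SJW change also passed with the mean of kept probes and without the bright-reference arrays. Slc25a3 fell by 0.38 ± 0.14 on the control diet (adjusted p = 0.0439), a call lost whichever of the 6 arrays was left out, and was at -0.34 ± 0.14 on the SJW diet. Slc25a31 was at -0.93 ± 0.44 and -1.03 ± 0.44.

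The log2 ratio of Slc25a4 minus that of Slc25a5 put both on 1 scale within each array. Its means were -3.50 ± 0.50 (SD, n = 3) in control saline and -3.23 ± 0.36 in SJW saline. After AOM they were -2.08 ± 0.35 and -2.01 ± 0.23, and in tumours -1.11 ± 0.28 and -0.73 ± 0.15. The 3 tissue states did not overlap: the saline arrays ran from -4.00 to -2.81, the AOM arrays from -2.43 to -1.72 and the tumour arrays from -1.42 to -0.62. The difference shows unequal change of the pair and not which of them changed. Slc25a4 alone already separated the AOM from the saline arrays, and Slc25a5 alone the tumour from the AOM arrays. How often other pairs of genes separate the states was not examined, and the tumour arrays lay on other slides scanned on another day. These 2 genes are closely related in sequence, and the specificity of their probes was not checked here.

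Of the carboxylate carriers, Slc25a10 was at 0.12, -0.10 and 0.30 in control AOM and at -1.08, -0.88 and -0.60 in the control tumours. In SJW AOM it was at -0.20, -0.29 and -0.12, and in the SJW tumours at -0.55, -0.71 and -1. The tumour arrays lay below all AOM arrays, with changes of -0.96 ± 0.19 (1.95-fold lower, adjusted p = 0.00133) and -0.55 ± 0.19 (1.46-fold lower, adjusted p = 0.0457). The SJW call held only when SJW tumour replicate 1 was the array left out. The citrate carrier Slc25a1 (-0.37 ± 0.15 and -0.27 ± 0.15), the oxoglutarate carrier Slc25a11 (-0.32 and -0.27) and Slc25a35 (-0.10 and 0.03) did not pass.

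Among the amino acid carriers 1 rose and 2 fell on the control diet, and 1 rose on the SJW diet, of 10 measured. Slc25a38 was at -0.47, -0.47 and -0.80 in control AOM and at 0.12, -0.10 and -0.21 in the control tumours. In SJW AOM it was at -0.52, -0.61 and -0.63, and in the SJW tumours at -0.14, -0.03 and -0.06. All 6 tumour arrays lay above all AOM and saline arrays, and the changes were 0.52 ± 0.12 (1.43-fold, adjusted p = 0.00418) and 0.51 ± 0.12 (1.43-fold, adjusted p = 0.00583). On the control diet Slc25a44 fell by 0.59 ± 0.14 (adjusted p = 0.00473) and Slc25a13 by 0.54 ± 0.17 (adjusted p = 0.0254); on the SJW diet they were at -0.27 and -0.37. The SJW value of Slc25a44 was 0.08 with median centring. The control call of Slc25a13 was lost without control AOM replicate 1 or 3 or control tumour replicate 1. Slc25a12, the other aspartate/glutamate carrier, was at -0.42 ± 0.18 and -0.45 ± 0.18, and Slc25a45 at 0.31 ± 0.22 and 0.49 ± 0.22. Slc25a29 did not pass on the probe used (-0.16 ± 0.15 and -0.15 ± 0.15). Its second probe, of similar brightness, was at -0.74 ± 0.13 and -0.32 ± 0.13. With the mean of kept probes Slc25a29 passed on the control diet, so the count above depends on the probe.

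Both mitoferrins, which bring iron into the matrix, fell on the control diet: Slc25a28 by 0.46 ± 0.13 (adjusted p = 0.0122) and Slc25a37 by 0.67 ± 0.20 (adjusted p = 0.018). In SJW-fed mice Slc25a28 fell by 0.65 ± 0.13 (adjusted p = 0.00166), and Slc25a37 was at -0.37 ± 0.20 (adjusted p = 0.189). The second probe of Slc25a37 was at -0.09 ± 0.22 on the control diet and -0.45 ± 0.22 on the SJW diet. Its control call was lost without control AOM replicate 1 or control tumour replicate 3, and that of Slc25a28 without control AOM replicate 2 or control tumour replicate 3. Both glutathione carriers fell on the control diet on their brighter probes, Slc25a40 by 0.82 ± 0.18 (adjusted p = 0.00273) and Slc25a39 by 0.47 ± 0.16 (adjusted p = 0.0397). Their second probes were at 0.14 ± 0.22 and 0.04 ± 0.20, so each call rests on 1 probe. In the deposited value table, which holds only the second probe of Slc25a39, its value was 0.13. The Slc25a39 call was also lost without control AOM replicate 1 or 3 or control tumour replicate 1 or 3.

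The outer-membrane member Slc25a46 was at 1.08, 0.97 and 0.87 in control AOM and at 0.22, 0.15 and 0.55 in the control tumours, and in SJW at 1.09, 0.84 and 1.14 and at 0.20, 0.58 and 0.39. The tumour arrays were below all AOM arrays, with changes of -0.67 ± 0.14 (adjusted p = 0.00272) and -0.63 ± 0.14 (adjusted p = 0.00524). Its second probe was at -0.19 ± 0.16 and -0.21 ± 0.16. Of the nucleotide and cofactor carriers, Slc25a33 was at -2.23, -2.43 and -1.75 in SJW AOM and at -1.65, -1.19 and -1.14 in the SJW tumours, and rose by 0.81 ± 0.21 (1.75-fold, adjusted p = 0.0108). On the control diet its change was 0.56 ± 0.21 (adjusted p = 0.0535), and all 6 tumour arrays lay above all 12 non-tumour arrays. The SJW call was lost without SJW AOM replicate 2 or SJW tumour replicate 3. Slc25a26, Slc25a32, Slc25a36 and Slc25a51, which carry S-adenosylmethionine, folate, pyrimidine nucleotides and NAD, ran from -0.33 to 0.09 and did not pass.

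Of the uncoupling proteins and their relatives, Slc25a14 fell in both diets, by 0.50 ± 0.15 (adjusted p = 0.017) and 0.73 ± 0.15 (adjusted p = 0.00214), the first call lost without control AOM replicate 1 or control tumour replicate 2. Slc25a30 was at 0.64 ± 0.31 and 0.63 ± 0.31, did not pass, and lay higher on all 6 tumour than on all 6 AOM arrays. Ucp2 had group means of 0.49 to 0.68 over all 6 groups and tumour changes of -0.05 ± 0.13 and 0.01 ± 0.13. A second, dimmer probe of Ucp2 gave 0.65 ± 0.20 and 0.57 ± 0.20, and the dimmest of the 3 gave 0.51 ± 0.23 and 0.28 ± 0.23. The probes of this gene thus disagree in tumours, and both probes not used were positive in each diet. Ucp1 was at -0.78 ± 0.42 and -0.66 ± 0.42. Ucp3 was not well above background on any SJW AOM array, and no fold is given for it.

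**Figure D5:**
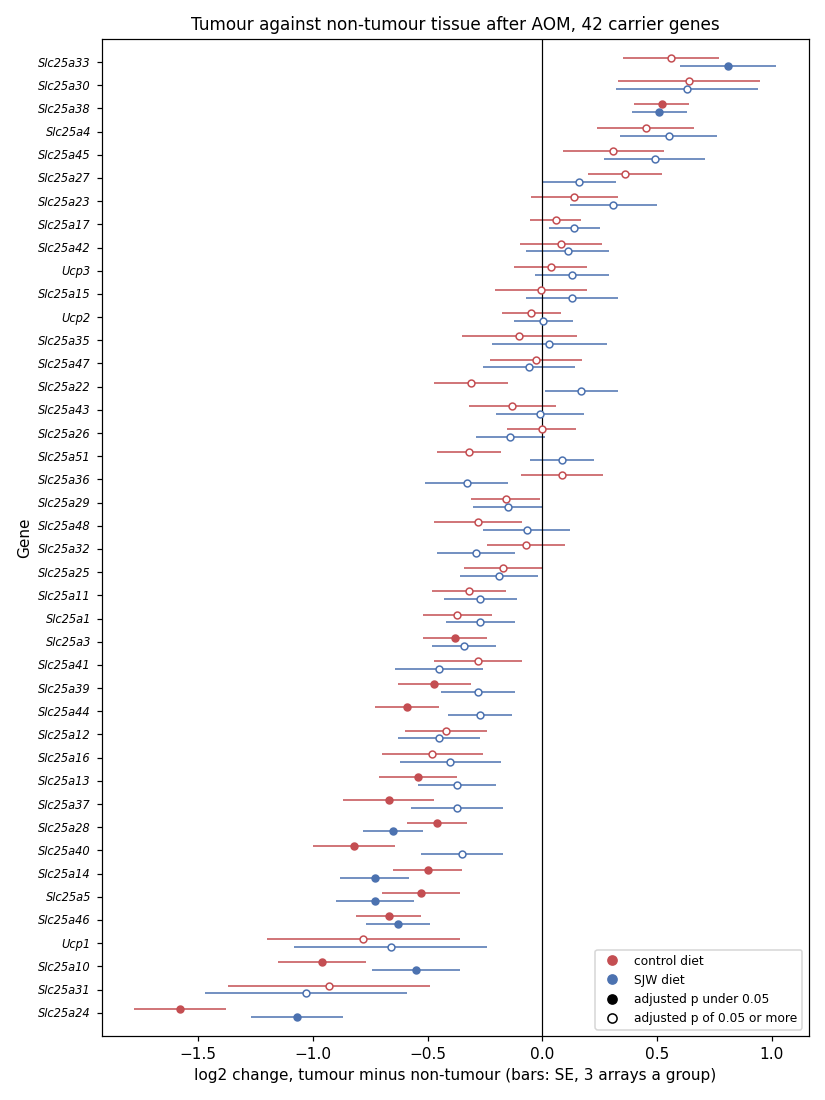
Log2 change in tumours against non-tumour tissue after AOM (horizontal axis, bars are SE, 3 arrays a group) for 42 of the 43 carriers, sorted by the sum over both diets; filled points have an adjusted p under 0.05. Slc25a24 (-1.58 and -1.07) lies lowest, and Slc25a38 (0.52 and 0.51) is the gene called higher in both diets.

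Over both diets, 3 carriers lay above and 9 below with no overlap between the 6 tumour and the 6 AOM arrays, against 8.4% and 15.9% of all genes. Against the 6 saline arrays, 4 lay above (Slc25a4, Slc25a33, Slc25a38 and Slc25a45) and 14 below, against 9.85% and 15.7%. Tumour and non-tumour arrays lay on different slides and were scanned on different days, so tissue cannot be told apart from slide or scan day. Markers of several cell types differed as well. Colonocyte markers had a mean of 4.06 to 5.10 on the AOM arrays and -0.56 to 0.99 in tumours, and goblet cell markers 4.40 to 5.04 and -0.13 to 2.44. All 6 genes of each of these lists fell in both diets, as did 7 of 8 smooth muscle and 7 of 12 absorptive enterocyte genes in each diet. Another of the 12 enterocyte genes, 1 in all, rose on the control diet, and 0 rose on the SJW diet. Of 7 striated muscle genes, 2 fell on the control diet and 5 on the SJW diet. Of 5 neutrophil genes, 4 rose in the control tumours and 0 in the SJW tumours, a difference that was not tested as such. The part of these markers in the carriers' changes was not tested.

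SJW diet and control diet were compared after saline, after AOM and in tumours, and the AOM and tumour changes were compared between the diets. No carrier passed limma's test in any of these 5 comparisons, and 0% of all genes did. At an unadjusted p under 0.05 there were 3, 0 and 0 carriers in the 3 diet comparisons, against 10.7%, 3.18% and 6% of all genes. In the 2 differences of changes there were 3 and 0, against 9.34% and 4.14% of all genes. The 3 after saline were Slc25a45 (-0.60 ± 0.22), Slc25a40 (0.46 ± 0.18) and Slc25a27 (-0.37 ± 0.16), with SJW values of Slc25a40 all above and of Slc25a27 all below the control values. Within the 3 shared slides the difference was -0.54, -0.70 and -0.55 for Slc25a45, 0.15, 0.62 and 0.60 for Slc25a40, and -0.21, -0.52 and -0.39 for Slc25a27. Blocked on slide, their adjusted p were 0.243, 0.411 and 0.446. The other probes of Slc25a27 were at 0.31 ± 0.26 and -0.18 ± 0.16, so its probes disagree here as well. In this comparison 14.1% of all genes did not overlap (8.25% higher, 5.87% lower). The AOM change of Slc25a40 was 0.17 on the control diet and -0.64 on the SJW diet (difference -0.81 ± 0.25, 95% interval -1.35 to -0.28, adjusted p = 0.476). That of Slc25a24 was 0.24 and -0.41 (difference -0.65 ± 0.28, adjusted p = 0.521). The second probe of Slc25a24 was at 0.03 ± 0.27 and -1.23 ± 0.27, so the size of its AOM change on the SJW diet depends on the probe. For Slc25a4 the difference of the AOM changes was -0.07 ± 0.30 (95% interval -0.70 to 0.57) and that of the tumour changes 0.10 ± 0.30 (-0.54 to 0.74), intervals that still hold differences in either direction. For Slc25a24 the tumour change differed between the diets by 0.51 ± 0.28 (95% interval -0.08 to 1.09).

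Other mitochondrial genes give the setting of the tumour changes. Over all genes, 12.7% were called higher and 19.3% lower on the control diet, and 9.18% and 15.4% on the SJW diet. Of 21 other mitochondrial membrane transporters, 0 were called higher and 8 lower on the control diet, and 0 and 9 on the SJW diet (median -0.43 and -0.35). The pyruvate carrier subunit Mpc2 fell by 1.22 ± 0.11 and 0.80 ± 0.11, and the sideroflexin Sfxn5 by 1.40 ± 0.17 and 1.33 ± 0.17. Of 23 measured shuttle and exchange enzymes, 1 was called higher and 12 lower on the control diet, and 0 and 12 on the SJW diet. The malic enzyme Me2 fell by 1.57 ± 0.20 and 1.05 ± 0.20, and citrate synthase Cs by 1.23 ± 0.15 and 1.07 ± 0.15. Got2, the mitochondrial aspartate aminotransferase, rose by 0.50 ± 0.14 on the control diet.

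Of 13 genes that use mitochondrial iron for heme and iron-sulphur clusters, 5 fell in both diets (Isca1, Isca2, Iscu, Glrx5 and Alas1), of which Isca1 fell by 1.03 ± 0.11 and 0.73 ± 0.11 and Alas1, which starts heme synthesis, by 0.73 ± 0.15 and 0.86 ± 0.15. Of 13 biogenesis regulators, 2 were called higher and 4 lower on the control diet, and 1 and 4 on the SJW diet. The coactivator Ppargc1b fell by 1.87 ± 0.17 on the control diet and fell by 2.06 ± 0.17 on the SJW diet, and the nuclear receptor Esrra by 1.36 ± 0.14 and 1.31 ± 0.14. Of 16 genes of the carrier import machinery, 2 rose and 2 fell in each diet: the receptor Tomm20 (by 0.71 ± 0.16 and 0.49 ± 0.16) and the carrier translocase Timm22 (by 0.50 ± 0.10 and 0.36 ± 0.10) rose, and Tomm22 (by 0.40 ± 0.11 and 0.53 ± 0.11) and Timm10b (by 0.54 ± 0.16 and 0.51 ± 0.16) fell. After AOM, 0 genes of these 5 lists passed on the control diet, and 0 higher and 2 lower on the SJW diet.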

How the data were processed

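Each of the 18 arrays is a two-colour Agilent slide region with the sample in Cy5 and the pool in Cy3, and no dye swap was made. Per the file headers, Agilent Feature Extraction 10.10.1.1 made the files. The deposited intensity values are median pixel intensities of spot and local background. The deposited log10 ratio is red over green as the scanner software corrected it, per the file headers. A deposited table of 35491 log2 values matched log2 of the processed red over green (slope 1 on every array). Its columns are not centred (medians -0.031 to 0.342), and how its entries were chosen is unknown.

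Normexp background correction (offset 50) and loess within arrays were applied, with control spots at weight 0 and population outliers (0.27% to 0.505% of an array's spots) removed. Replicate spots were averaged, and the brightest probe that passed the filter stood for its gene. Gene names came from a RefSeq table of GRCm38.p6: of 41174 probes, 27050 had 1 symbol, 14124 none and 0 several.

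All 26073 genes entered 1 limma 3.58.1 fit in R 4.3.3 (group means, eBayes, Benjamini-Hochberg over all genes), and "called", "rose" and "fell" mean an adjusted p under 0.05. The code was tested on simulated data. Changes are log2 with SE; levels are log2 ratios to the pool.

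The members, lists and tests were chosen with earlier results of these data known. Carriers were named by rule (the 8 largest non-overlapping calls in each direction; Slc25a4, Slc25a5, Slc25a3, Slc25a1, Slc25a10, Slc25a13, Slc25a37 and Ucp2 throughout; the 3 smallest p where fewer than 4 were called). Others were named after their values were seen; 1 carrier counted among the members is not reported here. Same-numbered samples deviated together between control and SJW saline (correlations 0.169 to 0.411 over 3 pairs), and the file headers place them on shared slides; elsewhere at least 1 pair was at or under 0.1. Alternatives covered normalization, filter, probe choice, slide, replicate number, groups fitted and single arrays left out. Blocking on reference brightness, and leaving out the bright-reference arrays, were added after seeing the data.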

Additional observations from a re-analysis of the deposited data

How the results depend on the processing

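Of 2092 values of named carriers under other settings, 1957 kept their side of the threshold, 117 lost a call, 17 gained one and 1 changed sign as a call. The last was Slc25a39 in control tumours, at 0.13 in the deposited value table, which holds only its other probe. Among the 1957 were 108 values that were not called and turned sign. For the rest, the cause was not tested.

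After AOM on the control diet, 2 carriers were called from the scanner's ratio, 3 without background subtraction, and 0 with the slide block, the replicate block or only the groups compared. On the SJW diet 1 was called with median centring, the deposited table or the replicate block, and 0 from the scanner's ratio, red alone, only the groups compared or the brightness block. No AOM count is given without the bright-reference arrays, where control saline and SJW saline each kept 1 array. In tumours, median centring gave 6 (control) and 4 (SJW), only the groups compared gave 6 (control), and no bright-reference arrays gave 13 (SJW).

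The median change after AOM was 0.21 (median centring) and -0.12 (scanner's ratio) on the control diet, and -0.19 (scanner's ratio) and -0.0025 (no bright-reference arrays) on the SJW diet. In control tumours it was 0.049 with median centring, 0.087 from the scanner's ratio, 0.045 in the deposited table and -0.052 from red alone. In SJW tumours these were 0.028, -0.065, -0.046 and -0.047, with -0.27 under no filter or a filter on all 18 arrays and -0.088 for the mean of kept probes. SJW against control was 0.32 (median centring), 0.12 (no background subtraction) and -0.1 (no bright-reference arrays) after saline, and -0.1 after AOM with red alone or no bright-reference arrays. In tumours it was -0.049 (scanner's ratio), -0.032 (deposited table) and -0.038 (red alone). The difference of AOM changes was -0.29 (median centring) and 0.022 (deposited table), and that of tumour changes 0.0034 (deposited table).

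Leaving out 1 array at a time gave 0 to 1 calls after AOM on the control diet and 0 to 2 on the SJW diet, 8 to 13 in control tumours (8 without control AOM replicate 1) and 6 to 9 in SJW tumours, and 0 in the diet comparisons. Medians ran from -0.056 to 0.045 and -0.13 to -0.038 after AOM, and -0.34 to -0.16 and -0.19 to -0.16 in tumours. For SJW against control they ran from -0.04 to 0.1 (saline), -0.1 to 0.022 (AOM) and 0.04 to 0.088 (tumours), and for the differences from -0.11 to 0.012 and -0.0065 to 0.18.

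With the replicate block, Slc25a4 after AOM had an adjusted p of 0.0543 (control) and 0.0501 (SJW), and tumour counts were 13 and 8. With 3 arrays a group and signals near background for Ucp3, small changes were not detectable.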
